A study of Mus musculus with 16 samples.

Results

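The lysosomal genes described here are 33 genes chosen by symbol: 5 membrane proteins, 9 cathepsins, 6 enzymes that cut sugar chains, 5 proteins that handle lipids, 6 parts of the proton pump and 2 transcription factors. All 33 were found among the 40324 distinct gene symbols of the count table, and all 33 passed the filter on low counts that left 14476 genes to test. Polyadenylated RNA of whole liver was sequenced from 16 db/db mice, littermates whose leptin receptor is defective, which makes them obese and diabetic. At about 5 weeks of age 8 of them received the adeno-associated virus AAV8 encoding green fluorescent protein (GFP 1 to GFP 8, the controls). The other 8 received AAV8 encoding arcA (arcA 1 to arcA 8), and all livers were taken 5 weeks later, at 10 weeks. Both groups carried the db/db genotype and a virus, so nothing here compares them with uninfected or lean mice. The labels name neither the promoter of the vectors nor the sex of the mice, and they do not say what arcA encodes. It is, among other uses, the bacterial gene name of arginine deiminase, an enzyme that degrades arginine. The series set out to describe how arcA expression changes the liver transcriptome, and the comparison below asks that of the lysosome.

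Lysosomes are the acidic compartments in which a cell breaks down proteins, lipids, sugar chains and glycogen delivered by endocytosis and autophagy. The vacuolar ATPase pumps protons in, soluble hydrolases made in the endoplasmic reticulum work at the resulting low pH, and heavily glycosylated membrane proteins line the inside and export the products. TFEB and TFE3 are related transcription factors that bind E-box motifs near the start sites of many of these genes. Their activity is set largely by phosphorylation: the kinase mTORC1, active on the lysosomal surface when amino acids are plentiful, keeps them in the cytoplasm. In the liver, hepatocytes make up most of the tissue, and resident macrophages (Kupffer cells) are also rich in lysosomes.

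Total counts averaged 38690786 ± 7495006 per library in the GFP group (SD, n = 8) and 41220484 ± 2752815 in the arcA group (SD, n = 8). Counts of the 33 genes ranged from 181 (Glb1) to 43651 (Ctsb) in 1 library. Levels are given as CPM, counts scaled to the size of the library after trimmed-mean (TMM) correction. The RNA Gm42418, which overlaps ribosomal RNA, took 11.8%, 18.1% and 19.4% of the counts in GFP 2, GFP 3 and GFP 5 against 2.29% to 7.37% in the other 13 libraries. These 3 libraries, and arcA 3 and arcA 8, were each left out in a further fit. Hepatocyte genes were present in every library, as the tissue label implies: Alb averaged 60760 CPM in the GFP group and 68710 CPM in the arcA group. No row of the table is named for arcA or GFP, so the transgenes could not be checked.

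Fold changes are log2 ratios of arcA over GFP from edgeR's quasi-likelihood test, with standard errors (SE), and p-values are adjusted by the Benjamini-Hochberg method over all 14476 genes. A gene was called higher or lower where its adjusted p was under 0.05. The median fold change of all genes was 0.01. Scaling by the summed counts of 11 hepatocyte marker genes instead of TMM moved that median to -0.17. Most of this sum came from Alb, and the fold changes of the 11 markers ran from -0.84 (Apoa1) to 0.64 (Fgb). The sum ranged from 81930 to 94480 CPM in the GFP livers and from 83260 to 108800 CPM in the arcA livers. Directions of small fold changes are therefore relative to TMM scaling. Under hepatocyte scaling, of the members with a fold change above 0 only Scarb2, Gaa, Neu1, Glb1 and Ctsc stayed above 0, and the other members given below as positive turned negative. Among other lysosomal genes named below, Gnptg, Nagpa, M6pr, Slc38a9, Tcirg1, Acp2 and Tmem106b also turned. The near-zero fold changes of Ctsz, Gla, Lipa and Psap turned with upper-quartile scaling and with library size alone as well, that of Ctsa with library size alone and that of Ctsz with median-ratio scaling.

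In control livers the abundance of these RNAs, compared per kilobase of exon, ran over a wide range. Lamp1, which encodes the main glycoprotein lining the lysosomal membrane, had the highest level at 220 ± 11.4 CPM per kb (SD, n = 8). It was followed by Ctsd, an aspartic protease, at 185 ± 14.4 CPM per kb and by Psap, the precursor of the saposins that assist sphingolipid breakdown, at 171.5 ± 14.3 CPM per kb. The ranges of Lamp1 and Ctsd overlapped over the 8 livers, and so did those of Ctsd and Psap. Psap lay above Ctsz (113 ± 3.62 CPM per kb) in every control liver. Ctsz and Ctsb overlapped, and both led a step down to Lamp2 (58.7 ± 6.38 CPM per kb), which did not overlap Ctsb. The lowest levels belonged to the calcium channel gene Mcoln1 (2.61 CPM per kb), the galactosidase gene Glb1 (2.55) and the transcription factors Tfe3 (2.325) and Tfeb (2.001). From Mcoln1 to Tfeb each gene overlapped the next in the order. Mcoln1 did not overlap Ctsf, the gene just above it. With the longest transcript as the length in place of all exons, the level of 25 of the 33 genes moved by more than 1 SD, and Lamp2 went from the sixth to the fourth place at 156 CPM per kb. In the arcA livers the first 3 places were the same, and Ctss moved from place 13 to place 19.

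**Figure D1:**
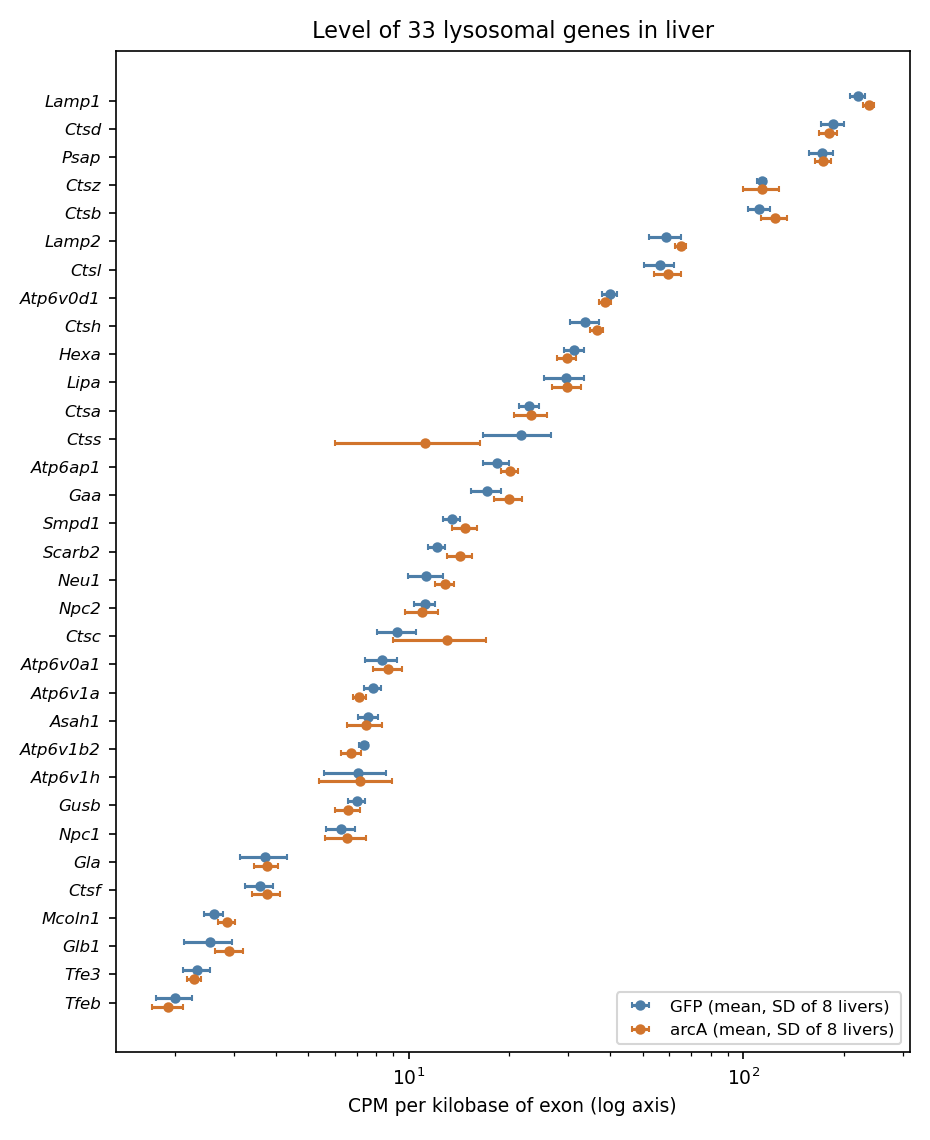
Levels of the 33 lysosomal genes in CPM per kilobase of exon (log axis), ordered by the control group; points are means of 8 livers and bars the SD. Lamp1 stands at the top at 220 CPM per kb in the GFP group and Tfeb at the bottom at 2.001, and the 2 groups lie close together for most genes, with Ctss the widest gap.

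Promoter sequences were looked up in RefSeq (build GRCm38.p6, windows from 250 bases before to 50 bases after the start) to see which members hold the E-box letters CACGTG. The motif reads the same on both strands. Of the 27 members with a window, 11 held it (40.7%), against 2187 of 27025 genes with a window (8.09%). The 27025 include genes that did not pass the filter on low counts. Of the tested genes with a window, 1191 held the motif and 9147 did not. They were Lamp1, Mcoln1, Ctsa, Ctsd, Ctsf, Ctsl, Gaa, Gla, Glb1, Atp6v0d1 and Atp6v1a. The longer GTCACGTG, of which CACGTG is part, was found on either strand in 7 members (25.9%) and in 2.55% of all genes with a window. Of the tested genes with a window, 478 held it and 9860 did not. The stretches below are the 150 bases before the first exon of a protein-coding transcript for the 3 genes of most use here that hold the motif, and for Scarb2 and Ctss, which changed in the arcA livers and hold no CACGTG in the window. They are written 5′ to 3′ on the gene's strand, with CACGTG in capitals. Lamp1 (chr8:13159011-13159160, plus strand) has 4 copies, the first at -61 and the last at -15 from the RefSeq start. Mcoln1 (chr8:3500307-3500456, plus strand) has 1 in the stretch shown, at -71, and another at -45 inside an annotated exon. Gaa (chr11:119267737-119267886, plus strand) has 1 at -140. The stretches of Scarb2 (chr5:92505658-92505807, minus strand) and Ctss (chr3:95526636-95526785, plus strand) have none, and that of Scarb2 lies within a non-coding transcript model of the gene.
Lamp1: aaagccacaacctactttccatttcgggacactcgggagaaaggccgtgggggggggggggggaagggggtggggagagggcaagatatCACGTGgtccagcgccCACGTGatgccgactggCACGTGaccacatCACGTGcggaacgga
Mcoln1: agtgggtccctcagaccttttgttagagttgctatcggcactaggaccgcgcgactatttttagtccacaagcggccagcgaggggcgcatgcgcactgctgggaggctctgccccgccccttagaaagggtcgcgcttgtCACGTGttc
Gaa: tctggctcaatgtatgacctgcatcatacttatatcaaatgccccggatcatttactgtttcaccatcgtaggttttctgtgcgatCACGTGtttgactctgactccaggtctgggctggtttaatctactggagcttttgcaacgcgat
Scarb2: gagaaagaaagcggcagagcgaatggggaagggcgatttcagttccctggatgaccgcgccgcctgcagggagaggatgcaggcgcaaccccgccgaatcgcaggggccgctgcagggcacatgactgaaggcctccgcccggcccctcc
Ctss: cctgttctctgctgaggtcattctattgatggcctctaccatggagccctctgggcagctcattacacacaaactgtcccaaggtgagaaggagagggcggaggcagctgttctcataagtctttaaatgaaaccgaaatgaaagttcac
These letters describe the windows only and are not measurements of binding.

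Across the 33 genes the shift between arcA and GFP livers was small. Scarb2 and Gaa were higher in arcA livers, 2 of 33 (6.06%) where 617 of all 14476 genes (4.26%) were called higher. Ctss was lower, 1 of 33 (3.03%) where 951 of all genes (6.57%) were called lower. These shares are near those of all genes. At an unadjusted p under 0.05, 10 of the 33 were higher (30.3%, against 12.3% of all genes) and 3 were lower (9.09%, against 12.6%). For no member did all 8 livers of one group lie above all 8 of the other, as was the case for 0.566% of all genes upward and 1.2% downward. The fold change was above 0 for 22 of the 33 (66.7%, against 52.3% of all genes), and for 5 of the 33 under hepatocyte scaling. The median fold change of the members was 0.02 beside 0.01 for all genes, and -0.14 beside -0.17 under hepatocyte scaling. Summed over the 33 genes, the level was 4525, 4740 and 4887 CPM (lowest, median and highest liver) in the GFP group and 4804, 4903 and 5451 CPM in the arcA group. The 2 groups overlapped in that sum, and the highest value was that of arcA 6. DESeq2 called Scarb2, Gaa and Ctsc higher and Ctss and Atp6v1a lower (5.39% and 8.67% of all genes were called by it in each direction). Voom, limma's test for counts, called Scarb2 and Gaa higher and Ctss and Atp6v1a lower (5.69% and 7.88% of all genes).

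**Figure D2:**
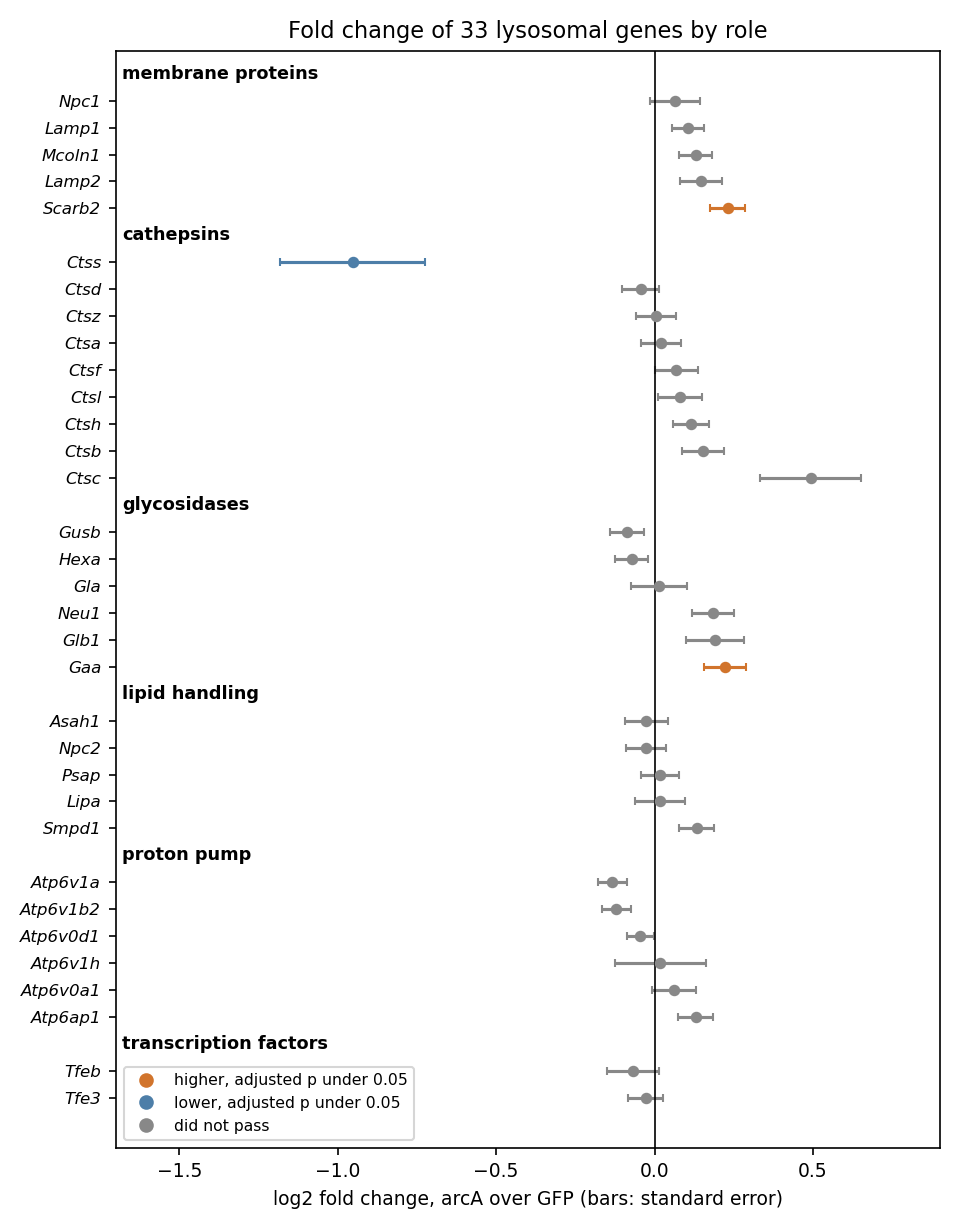
Log2 fold change, arcA over GFP, of the 33 genes grouped by role; points are edgeR estimates from 8 livers a group and bars 1 SE. Scarb2 (0.23) and Gaa (0.22) in orange passed the test upward and Ctss (-0.95) in blue passed downward; genes in grey did not pass.

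Of the 5 membrane proteins 1 was called higher, beside 4.26% of all genes. At an unadjusted p under 0.05, 4 were higher, beside 12.3% of all genes. The fold changes ran from 0.07 (Npc1) to 0.23 (Scarb2) with a median of 0.13. Under hepatocyte scaling the median of the 5 was -0.04 and only Scarb2 was above 0. Scarb2 encodes LIMP-2, a membrane protein that carries newly made hydrolase to lysosomes (gene ENSMUSG00000029426, GRCm38 chromosome 5, 92441314 to 92506833, minus strand). Its level was 66.4, 77.3 and 80.5 CPM (lowest, median, highest) in the GFP livers and 80.2, 89.5 and 102.3 CPM in the arcA livers. All 8 arcA livers lay above the GFP median and 6 above every GFP liver, with arcA 2 and arcA 7 just inside the control range. Scarb2 rose by 17.3%, from 76.2 ± 4.35 to 89.4 ± 7.84 CPM (SD, n = 8 in each group; log2 fold change 0.23, SE 0.0552, edgeR adjusted p = 0.0102). Without any 1 liver the adjusted p stayed between 0.00691 and 0.0297. It was 0.118 with library size as the only scaling, 0.613 with hepatocyte scaling and 0.0662 without GFP 2, GFP 3 and GFP 5.

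Lamp1 and Lamp2, the abundant glycoproteins of the lysosomal membrane, did not pass the test. Lamp1 stood at 549, 595 and 629 CPM in GFP livers and at 582, 639 and 658 CPM in arcA livers (log2 fold change 0.11, SE 0.0503, adjusted p = 0.19). Of the 8 arcA livers, 7 lay above all controls, and arcA 8 stood apart at 582 CPM. Lamp2, whose product also takes part in the fusion of autophagosomes with lysosomes, stood at 458, 551 and 677 CPM in the GFP group and at 593, 613 and 665 CPM in the arcA group (0.15, SE 0.0648, adjusted p = 0.16). All 8 arcA livers were above the GFP median for Lamp2, and none was above the highest control. Both genes had negative fold changes under hepatocyte scaling, -0.07 for Lamp1 and -0.03 for Lamp2.

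Mcoln1 encodes the channel TRPML1, which releases calcium from lysosomes. Its levels were 17.9, 19.7 and 21.9 CPM in GFP livers and 19.6, 21.9 and 22.9 CPM in arcA livers, and the fold change of 0.13 did not pass (SE 0.0513, adjusted p = 0.115). Npc1, the membrane protein that moves cholesterol out of lysosomes, stood at 58.4, 69.1 and 81.0 CPM and at 62.4, 71.8 and 95.3 CPM. Its fold change was 0.07 with a 95% interval of -0.09 to 0.22 (adjusted p = 0.673), and the groups overlapped, with 2 of 8 arcA livers above every control.

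**Figure D3:**
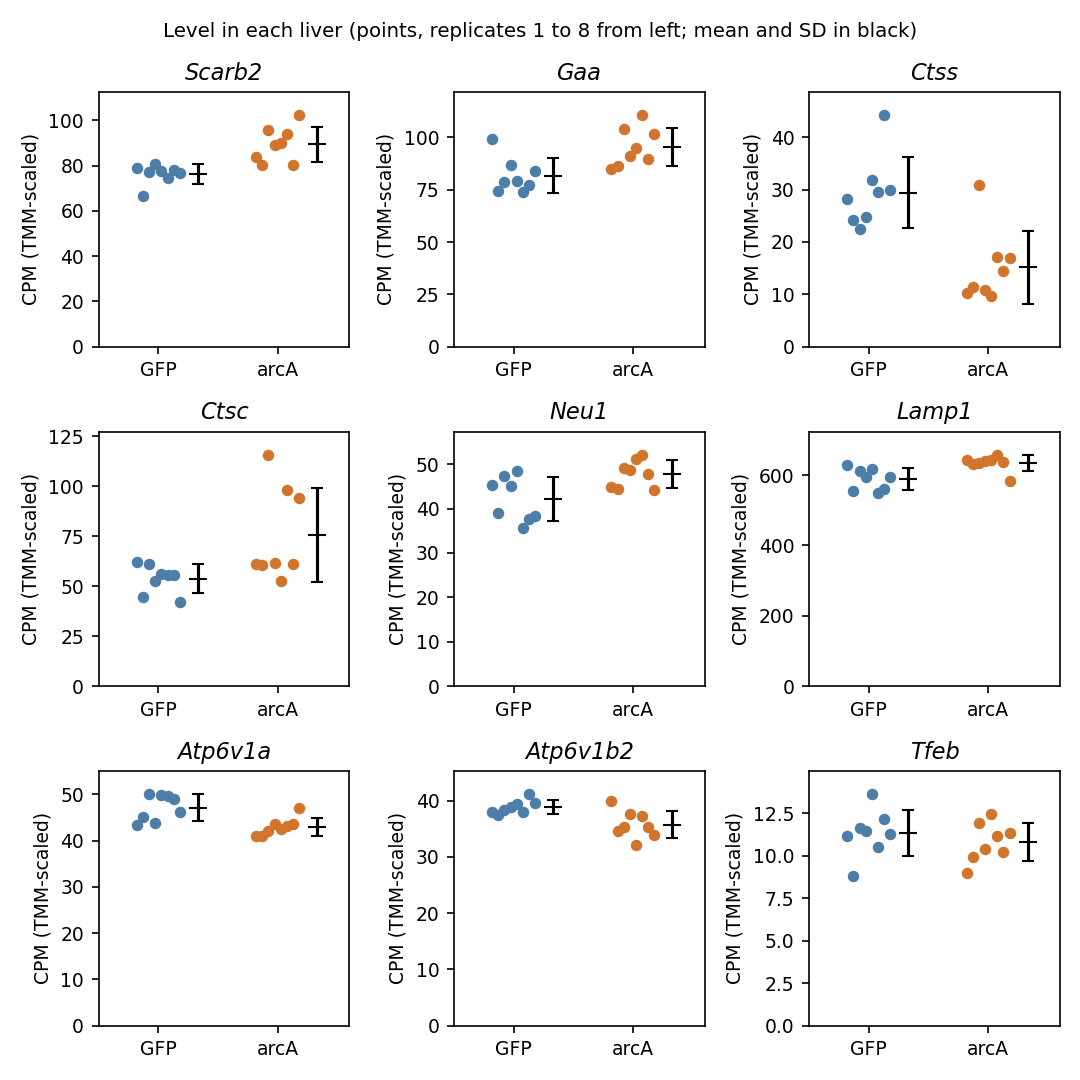
Levels in CPM of 9 lysosomal genes in each of the 16 livers (points), with the mean and SD of each group (n = 8). Scarb2 and Gaa are higher and Ctss lower in arcA livers; the arcA livers of Ctsc fall into a set of 3 at 94.1 to 115.7 CPM and a set of 5 at 52.4 to 61.5 CPM.

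Among the 9 cathepsins, the proteases of the lysosome, Ctss alone passed the test, where 6.57% of all genes were called lower. The fold changes ran from -0.95 to 0.49 with a median of 0.07. Ctss encodes cathepsin S, a cysteine protease of antigen-presenting cells that trims the invariant chain (Cd74) from MHC class II (gene ENSMUSG00000038642, GRCm38 chromosome 3, 95526786 to 95556403, plus strand). Its level was 22.5, 28.8 and 44.2 CPM in the GFP livers and 9.72, 12.9 and 30.9 CPM in the arcA livers. All arcA livers but arcA 3 lay below every control. The mean fell from 29.4 ± 6.79 to 15.2 ± 6.99 CPM (SD, n = 8; log2 fold change -0.95, SE 0.23, edgeR adjusted p = 0.0152). The fold change stayed between -1.18 and -0.84 without any 1 liver, and Ctss passed the test in all 29 alternatives, with -1.12 under hepatocyte scaling.

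Levels of macrophage genes moved with that of Ctss. All 15 of 15 macrophage markers had negative fold changes (median -0.68, range -1.02 to -0.35), and 8 of them passed the test, beside 6.57% of all genes called lower. Over the alternative fits the number that passed ran from 3 to 14. None of the 15 was at 0 in either group. Their summed level was 335, 401 and 534 CPM (lowest, median, highest) in GFP livers and 142, 220 and 471 CPM in arcA livers. Clec4f, a Kupffer cell lectin, averaged 58.5 CPM in the GFP group and 39.9 CPM in the arcA group (-0.55, adjusted p = 0.0271), and Cd5l averaged 60.5 and 35.2 CPM (-0.78, adjusted p = 0.0735). Of 8 antigen-presenting cell markers tested, 6 fell; Cd74 had a fold change of -1.63 and H2-Ab1 one of -1.80 (adjusted p = 0.00247 and 0.0021), and their list's sum ran from 202 to 447 CPM and from 40.6 to 218.6 CPM. In whole liver, fewer cells of a type and less RNA per cell cannot be told apart. The part of these cells in the Ctss result was not tested.

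Within each group, livers with a higher macrophage sum had a higher Ctss level. In the 8 GFP livers Pearson's r was 0.973 (exact permutation p = 0.000347, adjusted p = 0.0115 over 66 relations) and Spearman's rho 0.905 (exact permutation p = 0.00456, adjusted p = 0.1). Without the 2 livers farthest from the median sum, GFP 3 and GFP 7, r was 0.903. In the 8 arcA livers r was 0.979 (exact permutation p = 0.000521, adjusted p = 0.0115) and rho 0.905 (adjusted p = 0.1), and r was 0.893 without arcA 3 and arcA 5. GFP 7 had both the highest Ctss level and the highest marker sum of its group, and arcA 3 had both in the other. Per 100 CPM of macrophage markers, Ctss stood at 7.19 ± 0.541 CPM in GFP livers and at 6.05 ± 0.699 CPM in arcA livers (SD, n = 8). The ranges of 6.49 to 8.28 and 4.72 to 6.87 overlapped, but the arcA median of 6.21 lay below the lowest GFP liver. This difference was not tested. Across all 33 members, r was positive in 22 (GFP) and 24 (arcA), with medians of 0.187 and 0.357, and the adjusted Pearson test passed for Ctss alone in the GFP group and for Ctss and Ctsc in the arcA group. No Spearman test passed after adjustment. For Ctsc the arcA livers form separate sets of 3 and 5, the set of 3 being the livers with the highest marker sums, so no r over all 8 is given and the relation within a set could not be tested.

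**Figure D4:**
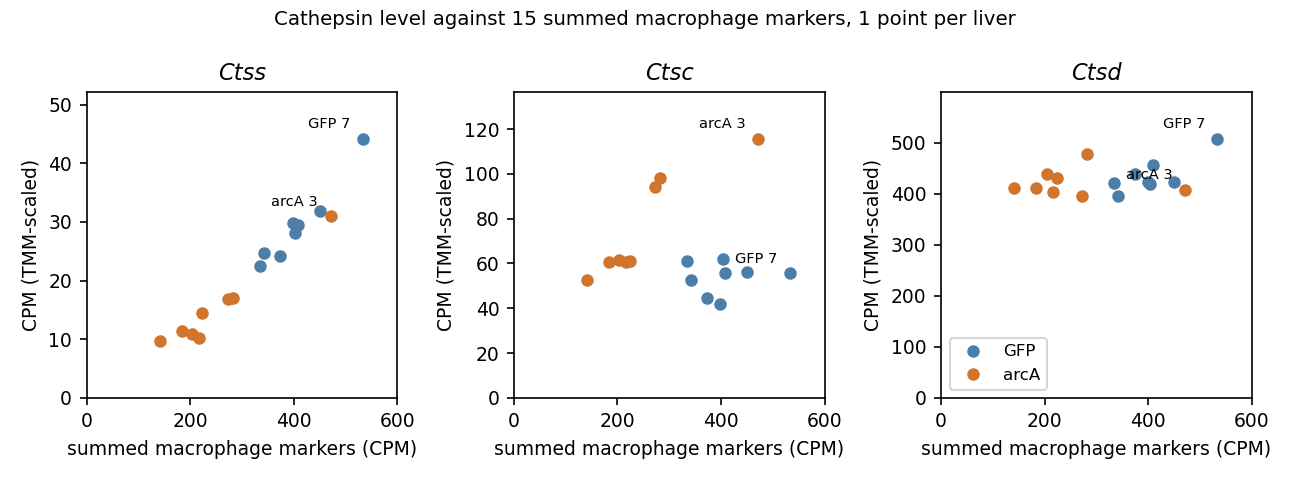
Level of Ctss, Ctsc and Ctsd in CPM against the summed level of 15 macrophage markers in CPM, 1 point per liver, with GFP 7 and arcA 3 labelled. Ctss follows the marker sum in both groups (r 0.973 and 0.979), while for Ctsc r is 0.0838 in the control livers and the 3 arcA livers with the highest marker sums are the 3 with the highest level.

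Ctsc encodes cathepsin C, the dipeptidyl peptidase that activates serine proteases of immune cells (chromosome 7, 88278085 to 88310888). Its level was 41.9, 55.7 and 61.8 CPM in the GFP livers and 52.4, 61.4 and 115.7 CPM in the arcA livers. The arcA livers split: arcA 3, arcA 6 and arcA 8 stood at 115.7, 98.2 and 94.1 CPM, above every control, and the other 5 stood between 52.4 and 61.5 CPM, inside the control range. The fold change of 0.49 did not pass (SE 0.161, adjusted p = 0.0614), was 0.56 without arcA 5 (adjusted p = 0.0355) and was 0.29 without arcA 3 and arcA 8 (adjusted p = 0.169). The same 3 livers had the highest macrophage sums of their group, at 471, 282 and 272 CPM, but Ctsc per 100 CPM of those markers was 31.2 ± 4.32 in arcA livers and 13.5 ± 2.7 in GFP livers (SD, n = 8). Ctsc and Ctss thus had opposite signs between the groups although both were highest in arcA 3.

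The more abundant cathepsins did not pass the test. Ctsb, a cysteine protease, stood at 594, 678 and 730 CPM in GFP livers and at 678, 733 and 870 CPM in arcA livers, with all 8 arcA livers above the GFP median. Its fold change of 0.15 did not pass (SE 0.0656, adjusted p = 0.145), and it was -0.02 under hepatocyte scaling. Ctsd stood at 396, 423 and 508 CPM and at 395, 412 and 479 CPM, a fold change of -0.04 with a 95% interval of -0.16 to 0.07 (adjusted p = 0.705). Ctsl, a cysteine protease of general protein breakdown, stood at 329, 350 and 435 CPM and at 325, 383 and 442.5 CPM, with a fold change of 0.08 and an interval of -0.06 to 0.22 (adjusted p = 0.529). For Ctsd and Ctsl the groups overlapped. The fold change was 0.12 for Ctsh, 0.07 for Ctsf, 0.02 for Ctsa and 0.00 for Ctsz, none of which passed.

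Of the 6 glycosidases, which remove sugars from glycogen, glycoproteins and glycolipids, 1 was called higher, beside 4.26% of all genes. At an unadjusted p under 0.05, 2 were higher, beside 12.3% of all genes. The median fold change of the 6 was 0.10 (-0.07 under hepatocyte scaling). Gaa encodes acid alpha-glucosidase, which degrades glycogen in lysosomes (gene ENSMUSG00000025579, GRCm38 chromosome 11, 119267887 to 119285454, plus strand). Its level was 73.8, 78.9 and 99.3 CPM in GFP livers and 85.1, 92.8 and 110.6 CPM in arcA livers. All 8 arcA livers lay above the GFP median, but only 3 lay above GFP 1, the highest control. Gaa rose by 16.6%, from 81.7 ± 8.36 to 95.3 ± 9.15 CPM (SD, n = 8; log2 fold change 0.22, SE 0.0668, edgeR adjusted p = 0.0374). This call was not firm: it was lost in 18 of 29 alternatives. Among them were the fits without GFP 2, 3, 5, 6, 7 or 8 and without arcA 3, 5, 6 or 8, each left out alone, and the adjusted p without 1 liver ran from 0.00796 to 0.0953. It was 0.0522 with upper-quartile scaling, 0.194 with library size alone and 0.695 with hepatocyte scaling, and the fold change stayed positive in each.

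Neu1, the sialidase that starts the breakdown of sialylated chains, stood at 35.5, 42.1 and 48.4 CPM in GFP livers and at 44.1, 48.2 and 52.2 CPM in arcA livers. All 8 arcA livers were above the GFP median and 4 above every control, and the fold change of 0.18 did not pass (SE 0.0657, adjusted p = 0.0787). It passed without GFP 5 (0.21, adjusted p = 0.0471) and without GFP 2, 3 and 5 (0.24, adjusted p = 0.0446). Glb1, lysosomal beta-galactosidase, had a fold change of 0.19 (adjusted p = 0.206), and 0.26 without GFP 8 (adjusted p = 0.038), the control liver with the highest level. Hexa, which takes part in ganglioside breakdown, had a fold change of -0.07, Gusb, beta-glucuronidase, one of -0.09 and Gla, alpha-galactosidase A, one of 0.01, and none passed.

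None of the 5 genes for lipid handling passed the test, and their median fold change was 0.02. Smpd1, acid sphingomyelinase, came nearest: it stood at 41.8, 44.2 and 49.6 CPM in GFP livers and at 42.6, 49.8 and 56.3 CPM in arcA livers (0.13, SE 0.0552, adjusted p = 0.131). Of its 8 arcA livers, 7 were above the GFP median and 4 above every control. The fold change was 0.02 for Lipa, the acid lipase of cholesteryl esters and triglycerides, 0.02 for Psap, -0.03 for Npc2, which hands cholesterol to Npc1, and -0.03 for Asah1, acid ceramidase.

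Of the 6 proton pump members 0 passed the test, and the median fold change was -0.01. At an unadjusted p under 0.05, 2 were lower and 1 higher, beside 12.6% and 12.3% of all genes. Atp6v1a, the catalytic subunit that hydrolyses ATP in the cytosolic V1 sector, stood at 43.3, 47.6 and 50.1 CPM in GFP livers and at 40.9, 42.8 and 47.0 CPM in arcA livers. All 8 arcA livers were below the GFP median and 5 below every control, with arcA 8 the highest of its group. Its fold change was -0.13 (SE 0.045, adjusted p = 0.0624), and it passed downward in 11 of 29 alternatives, among them DESeq2 (adjusted p = 0.0298), voom (0.0329) and the fits without GFP 1, GFP 2, GFP 4 or arcA 8 (0.0381, 0.0466, 0.0309 and 0.0304). Atp6v1b2, its partner in the V1 ring, stood at 37.5, 38.6 and 41.2 CPM and at 32.2, 35.3 and 39.9 CPM, with 6 of 8 arcA livers below every control. The fold change of -0.12 did not pass (SE 0.0451, adjusted p = 0.0942), and was -0.14 without arcA 1 (adjusted p = 0.0477).

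The accessory subunit Atp6ap1, which helps the pump assemble, stood at 50.8, 53.8 and 63.8 CPM in GFP livers and at 56.1, 60.6 and 65.6 CPM in arcA livers, with all 8 above the GFP median (0.13, SE 0.0549, adjusted p = 0.14). The membrane sector subunits Atp6v0d1 and Atp6v0a1 had fold changes of -0.05 and 0.06. Atp6v1h varied most among the pump genes: GFP 8 stood at 95.7 CPM and arcA 4 at 111.1 CPM, and the fold change of 0.02 had an interval of -0.27 to 0.30. With 13 other pump subunits that could be tested, 8 genes of the V1 sector had a median fold change of -0.07, 7 of them below 0, and 9 genes of the V0 sector one of -0.02, 5 of them below 0. Of the other subunits Atp6v1e1, the stalk of V1, passed the test and fell by 0.16 on the log2 scale, from 73.6 ± 1.93 to 65.9 ± 4.16 CPM (SD, n = 8; SE 0.0431, edgeR adjusted p = 0.0197). That call was lost with library size alone (adjusted p = 0.126), with no filter on low counts (0.0595) and without arcA 3 and arcA 8 (0.0574). Atp6v0d2 had a fold change of 0.58 (adjusted p = 0.138), Atp6v0e and Atp6v0b -0.13 each (0.153 and 0.223) and Tcirg1, the a3 subunit, 0.03 (0.925).

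The RNAs of the transcription factors did not pass the test. Tfeb stood at 8.80, 11.4 and 13.6 CPM in GFP livers and at 8.96, 10.8 and 12.4 CPM in arcA livers, a fold change of -0.07 with a 95% interval of -0.23 to 0.09 (adjusted p = 0.668). Tfe3 stood at 19.5, 20.8 and 25.1 CPM and at 20.1, 20.9 and 23.0 CPM, a fold change of -0.03 with an interval of -0.14 to 0.08 (adjusted p = 0.816). The control range of Tfeb enclosed that of all 8 arcA livers, and so did that of Tfe3. Under hepatocyte scaling the fold changes were -0.24 and -0.21. RNA levels do not measure where these proteins are in the cell. Split by the promoter windows shown above, the 11 members with CACGTG had a median fold change of 0.07 and the 16 without it 0.02. For the longer GTCACGTG the order was reversed, 0.02 in the 7 members with it and 0.04 in the 20 without. Over all genes tested that had a window, both the 1191 with CACGTG and the 9147 without had a median of 0.01, and 9.07% and 12% of them were called.

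Of 20 relatives of TFEB and genes of mTORC1 signalling at the lysosome that could be tested, 2 rose and 0 fell, beside 4.26% and 6.57% of all genes, with a median fold change of -0.01. Flcn encodes folliculin, which activates the Rag GTPases that bring TFEB to mTORC1. It rose from 14.2 ± 1.1 to 18.4 ± 3.58 CPM (SD, n = 8; log2 fold change 0.38, SE 0.0957, edgeR adjusted p = 0.0144), and 7 of 8 arcA livers lay above every control. Its adjusted p was 0.169 under hepatocyte scaling and 0.0734 without GFP 2, 3 and 5. Tsc1, part of the complex that restrains mTORC1, stood at 18.2, 20.3 and 22.5 CPM in GFP livers and at 20.8, 23.2 and 28.5 CPM in arcA livers, with 5 of 8 arcA livers above every control. It rose by 0.28 (SE 0.0712, edgeR adjusted p = 0.0138), and its adjusted p was 0.362 under hepatocyte scaling. Mtor had a fold change of -0.10 (adjusted p = 0.458). Tfec, a TFEB relative of macrophages, and Rragd, a Rag GTPase gene, had fold changes of -0.63 and -0.64 that did not pass (adjusted p = 0.0604 and 0.0684). Tfec passed downward in 8 of the 29 alternatives and Rragd in 4. Both passed with DESeq2 (adjusted p = 0.0257 and 0.0345) and with hepatocyte scaling (0.0201 and 0.0151). Tfec also passed without GFP 2, GFP 4 or arcA 8 (0.0448, 0.0365 and 0.0438), and Rragd without GFP 6 or arcA 5 (0.0355 and 0.042).

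Of 37 other lysosomal hydrolases that could be tested, 6 were higher and 1 lower, beside 4.26% and 6.57% of all genes, with a median fold change of 0.11 (-0.06 under hepatocyte scaling). Ids, iduronate sulfatase, stood at 9.80, 10.9 and 12.8 CPM in GFP livers and at 12.7, 13.6 and 14.7 CPM in arcA livers. Of its 8 arcA livers 6 were above every control, and it rose by 0.29 (SE 0.0648, edgeR adjusted p = 0.00726). Arsb, another sulfatase, rose by 0.19 (adjusted p = 0.0248). Arsb lost its call without GFP 2 (adjusted p = 0.0681), GFP 6 (0.0525) or arcA 6 (0.0656). Acp2 and Plbd2 also passed (adjusted p = 0.0442 and 0.0454), but in only 2 and 4 of the 16 fits without 1 liver. Under hepatocyte scaling none of the 6 passed, and the fold change of Acp2 turned to -0.000192. Lgmn, legumain, which processes cathepsins, fell from 45.9 ± 7.7 to 32.3 ± 6.9 CPM (SD, n = 8; -0.51, SE 0.125, edgeR adjusted p = 0.015). Its highest livers were GFP 7 and arcA 3, as for Ctss.

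Among 26 other lysosomal membrane proteins that could be tested, 6 fell and 1 rose, beside 6.57% of all genes called lower and 4.26% called higher, and the median fold change was 0.03. Cd63, a tetraspanin of late endosomes, fell from 6.83 ± 1.53 to 2.63 ± 0.6 CPM (SD, n = 8; -1.38, SE 0.15, edgeR adjusted p = 9.92e-06), and all 8 arcA livers were below all 8 controls. Laptm5, a membrane protein of blood cells, fell by 1.20 (adjusted p = 0.000588), and Slc11a1, the metal transporter of macrophage phagosomes, by 0.98 (0.00236). The calcium and sodium channel gene Tpcn2 fell by 0.98 (0.00443) and the peptide transporter gene Slc15a3 by 0.94 (0.00484). Cd68, a macrophage glycoprotein, fell by 0.83 (0.0246), and its adjusted p was 0.0522 without GFP 7, 0.0579 without GFP 2, 3 and 5, and 0.0556 with no filter. Of these, Laptm5, Slc11a1, Slc15a3 and Cd68 were highest in GFP 7 and arcA 3, as were Ctss, Ctsa and 12 of the 15 macrophage markers, and as were 438 of all 14476 genes (3.03%). Tmem106b rose by 0.16 (adjusted p = 0.0354) but passed in only 7 of the 16 fits without 1 liver, and under hepatocyte scaling its fold change was -0.02. Slc38a9, an arginine sensor of the lysosomal membrane, had a fold change of 0.09 (adjusted p = 0.587). Of 9 genes that sort enzymes to lysosomes, none passed in edgeR's test, and the median was -0.01. At an unadjusted p under 0.05, 2 were higher, beside 12.3% of all genes. Gnptg and Nagpa, which build the mannose 6-phosphate tag, had fold changes of 0.17 and 0.15 (adjusted p = 0.0928 and 0.19), M6pr, its receptor, 0.06 (0.401) and the adaptor Gga3 -0.12 (0.453). Gnptg passed without GFP 3 (adjusted p = 0.0116), without GFP 2, 3 and 5 (0.00629) and with voom (0.0255).

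Markers of other cell types gave the following counts, beside 4.26% of all genes called higher and 6.57% called lower. Of 11 hepatocyte markers 1, Fgb, rose (median 0.21); Alb and Ttr had fold changes of 0.18 and 0.28 (adjusted p = 0.186 and 0.0697). Of 7 T cell markers all 7 fell, Cd8a by 4.83 and Cd3g by 3.48. These sizes rest on few counts: an arcA library held 0 to 4 of Cd8a and 0 to 10 of Cd3g. The list's sum ran from 6.56 to 12.6 CPM in GFP livers and from 0.535 to 1.94 CPM in arcA livers. The only B cell marker of 4 that could be tested, Cd79b, fell by 1.46, and Cd79a averaged 0.54 CPM in GFP livers and 0.12 CPM in arcA livers. Of 7 markers of lipid-associated macrophages 4 fell; Lgals3 fell by 1.99 and Spp1 had a fold change of 0.28. Of 6 stellate cell markers 4 fell (Dcn by 0.50, Reln by 0.34), of 7 sinusoidal endothelial markers 1 fell (Stab2 and Clec4g did not, at -0.17 and -0.14), and of 4 bile duct markers 0 passed (Sox9 -0.36, Krt19 0.29).

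The livers of a group differed from each other by about as much as most fold changes. The median coefficient of variation over the 33 genes was 9.02% in the GFP group and 8.77% in the arcA group, and it was highest for Ctss, at 23.1% and 46.1%. Ctsc (31% in the arcA group) and Atp6v1h (21% and 24.8%) came next. arcA 6 was the highest arcA liver for 12 of the 33 genes, where it was the highest for 13.8% of all genes, and its summed level of 5451 CPM lay above the 4804 to 5167 CPM of the other 7. arcA 8 was the lowest arcA liver for 11 of the 33 and the highest for 8, with 17.4% and 18.7% of all genes. In the control group GFP 1, GFP 3 and GFP 7 were each the highest liver for 8 genes.

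**Figure D5:**
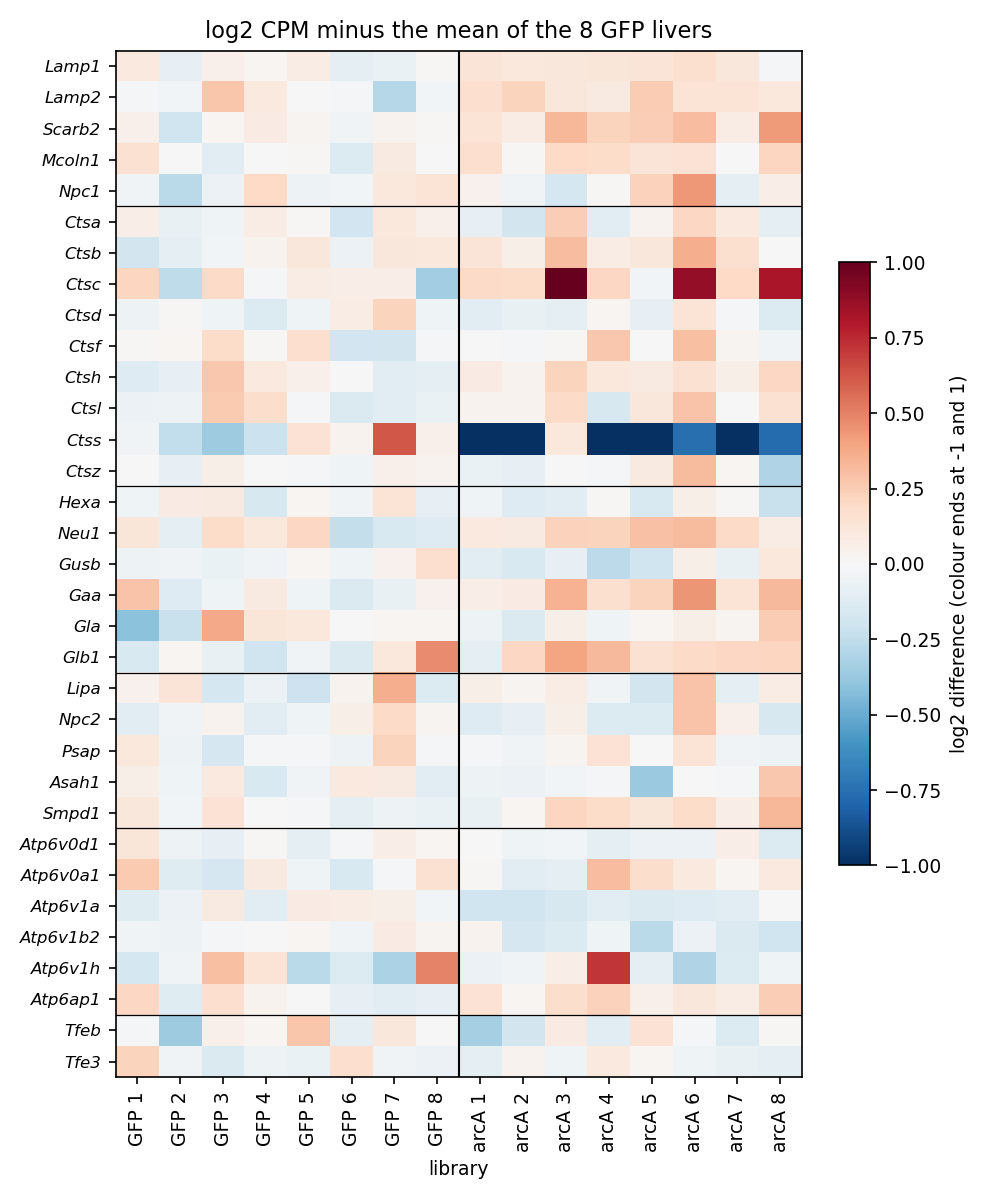
Log2 level of each of the 33 genes in each of the 16 livers relative to the gene's mean over the 8 GFP livers. The colour scale ends at -1 and 1. The row of Ctss is low in all arcA livers but arcA 3, the row of Ctsc is high in arcA 3, 6 and 8, and most other rows vary little.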

How the data were processed

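The authors deposited raw read counts per gene symbol, 1 column for each of the 16 libraries. Per the submitters' processing notes, bcl2fastq, STAR 2.5.1a and featureCounts 1.4.6-p5 (Subread) were used on GRCm38; annotation release, strand setting and the counting of mates were not given in the sources used here. Where 2 genes overlap, or one is antisense to the other, the counts may mix them. Of 40757 lines, 348 exact copies were removed and 85 repeated symbols were summed. Among counts of 1 to 20, 69.8% were even, so mates may have been counted separately, and halved counts were tried. Coordinates and exon lengths came from GENCODE M21 by symbol.

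edgeR 4.0.16 (R 4.3.3; TMM scaling, filterByExpr, robust quasi-likelihood fit, group as the only term) was run on all 14476 genes that passed the filter, tested on simulated data first. SE is the fold change divided by the root of F, and intervals are 1.96 SE to each side (95%). DESeq2 1.42.0 and voom (limma 3.58.1) were alternatives. CPM of a list were summed per library.

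The labels do not say that the numbers pair mice: deviations of same-numbered livers correlated at -0.0487 to 0.159, and 2 of 8 livers matched their own number best. No 2 libraries were copies (lowest chi-square per gene 18.5 over 56 pairs within groups). The labels call the mice littermates and name no batch. The p-values of the group comparison set the difference between groups against the spread among these livers within a group.

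The 33 members and all lists were chosen with earlier results of these data known. Each member is given a fold change, and members with an unadjusted p under 0.05, and Tfeb, Tfe3, Lamp1, Lamp2, Ctsb, Ctsd, Ctsl and Npc1, get full values. From each other list the 4 genes with the smallest p, and Slc38a9, Mtor, Cd68 and Tcirg1, are named, and from each marker list the 2 most abundant. Acp2, Plbd2, Tmem106b and Slc15a3, among others called in the lists, and Fgb and Apoa1 were named after their values were seen. The hepatocyte marker Tf was not used. Some genes counted in the lists are not reported here.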

Additional observations from a re-analysis of the deposited data

Results flagged for a closer look

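In 9 of 66 sets of 8 livers (33 genes in 2 groups) the highest or lowest liver stood apart by a gap larger than Dixon's 95% critical value of 0.526 of the set's range, where chance marks about 1 in 20. The 2 sets of Ctss held GFP 7 at 44.21 CPM (nearest liver 31.81) and arcA 3 at 30.94 CPM (nearest 17.05), the livers with the highest macrophage marker sums. Scarb2 in GFP 2 was low at 66.38 CPM (nearest 74.32), and its adjusted p without single livers stayed at or under 0.0297. Lamp1 in arcA 8 was low at 582.2 CPM (nearest 632.3), and Atp6v1a in the same liver was high at 47.01 CPM (nearest 43.57). GFP 8 was high for Gusb at 35.65 CPM (nearest 32.66) and for Glb1 at 10.54 CPM (nearest 8.174). Npc2 was high in arcA 6 at 73.98 CPM (nearest 62.99), and Atp6v1h was high in arcA 4 at 111.1 CPM (nearest 70.72).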

How the results depend on the processing

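Of the 3 members called, Ctss passed in all 29 alternatives, Scarb2 in 26 and Gaa in 11. Library scaling mattered most, and its cause was not tested. With library size alone 253 genes and 0 members were higher, and 24% of all calls were upward against 39.3% with TMM. With hepatocyte marker scaling 65 genes were higher and 2727 lower (2.33% upward), 0 members were higher, 6 were lower (Atp6v0d1, Atp6v1a, Atp6v1b2, Ctss, Gusb and Hexa), the members' median was -0.139, and the fold changes of Acp2 and Tmem106b turned to -0.000192 and -0.0174. A filter of 1 CPM in 8 libraries left 407 genes higher, 1 member higher and 3 lower. Upper-quartile scaling, halved counts and the fit without arcA 3 and 8 each gave 1 member higher and 2 lower. DESeq2 and voom gave 2 members lower. Without GFP 2, 3 and 5, 369 genes and 1 member, Neu1, were higher. With the replicate number as a block, 1 member was higher (Gaa adjusted p = 0.0671) and 592 genes were higher and 876 lower. The labels do not say that the numbers pair mice. Without 1 liver the counts ran from 389 (without GFP 2) to 638 genes higher, from 731 to 1046 lower, from 1 to 2 members higher and from 1 to 2 lower, with a members' median of -0.00199 to 0.0543. The SE was largest for Ctss (0.23), Ctsc (0.161) and Atp6v1h (0.145), and it was 0.0924 for Glb1, the member with the fewest counts in a library (181). The parts of depth and of the spread between livers in these SEs were not tested.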
